A study of Mus musculus with 7 samples.

Results

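The seminal vesicle genes Svs2, Svs3a, Svs4, Svs5, Svs6, Sva and Spinkl were followed on the arrays of Nkx3.1-/- mouse prostates, as 7 of the 18938 genes measured under a gene name. They were chosen by name, taking the brightest probe set on average where a gene had several, and all 7 were measured. The question was whether they were high and low on the same arrays and how they differed between NAC and vehicle. Since the genes and this contrast were picked with the results known, their levels and differences are given as a description without a test.

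The mice were homozygous null for Nkx3.1, a prostate homeobox gene, on a recombinant inbred B6/129 background, and all of them lacked the gene. Pups were weaned and then received water with 5 mM N-acetylcysteine (NAC), an antioxidant from which cells make glutathione, or plain water as vehicle, for 13 weeks, and were 16 weeks old at collection. RNA of 3 vehicle mice (replicates 1, 2 and 4) and 4 NAC-treated mice (replicates 1 to 4) was measured on Mouse Gene 1.0 ST arrays of Affymetrix, which combine many short probes into 1 log2 value per probe set. Littermates went to separate cages by treatment, so cage and treatment cannot be told apart, and no Nkx3.1+/+ mouse was on these arrays. The RNA was taken from anterior prostate according to the methods, although the samples carry the tissue label whole prostate.

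Seminal vesicles are paired accessory glands to which the anterior prostate is attached along its length, so the lobe has to be cut away from them. Their androgen-dependent epithelium secretes a small number of very abundant proteins, and several of these are cross-linked after ejaculation by transglutaminase 4 from the prostate, forming the copulatory plug. The genes of most of these proteins, relatives of the human semenogelins, arose by repeated duplication inside a cluster of WAP-domain protease inhibitor genes.

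In the RefSeq annotation of GRCm38.p6, 5 of the 7 genes lie together on chromosome 2. Svs2, Svs4, Svs3a, Svs6 and Svs5 follow each other in this order, with Svs3b between Svs2 and Svs4, in a stretch of 98.5 kb at chr2:164235929-164334394 that holds these 6 genes and no other. Sva lies apart from them at chr6:42038394-42042851, and Spinkl lies in neither place. The 250 bases upstream of the annotated start were available for 6 of the 7 genes, all but Spinkl. Those of 5 are shown because these genes differed in how closely they followed each other across the arrays; Svs6 is left out as 93.3% identical to Svs5. They are written 5′ to 3′ on the strand of the gene and end at the base before the start. The windows are chr2:164238342-164238591 (minus strand) for Svs2, chr2:164278308-164278557 (minus strand) for Svs4, chr2:164289017-164289266 (plus strand) for Svs3a, chr2:164332515-164332764 (plus strand) for Svs5 and chr6:42038144-42038393 (plus strand) for Sva. Capitals mark TATAAA, the core of a TATA box, AGAACA, the hexamer of androgen receptor sites, and GATAAG, the core of GATA factor sites, or their reverse complements (TTTATA for TATAAA and TGTTCT for AGAACA); in Svs3a the capitals hold AGAACA followed directly by TATAAA.
Svs2: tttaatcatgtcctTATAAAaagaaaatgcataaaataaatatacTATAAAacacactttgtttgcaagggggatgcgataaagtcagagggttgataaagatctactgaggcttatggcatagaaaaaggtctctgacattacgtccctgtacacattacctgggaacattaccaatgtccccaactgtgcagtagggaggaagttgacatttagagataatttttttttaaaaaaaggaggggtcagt
Svs4: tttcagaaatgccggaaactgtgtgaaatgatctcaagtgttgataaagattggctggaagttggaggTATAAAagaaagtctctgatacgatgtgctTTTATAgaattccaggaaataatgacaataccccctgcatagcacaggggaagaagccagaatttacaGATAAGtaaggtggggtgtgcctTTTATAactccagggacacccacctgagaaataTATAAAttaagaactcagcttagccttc
Svs3a: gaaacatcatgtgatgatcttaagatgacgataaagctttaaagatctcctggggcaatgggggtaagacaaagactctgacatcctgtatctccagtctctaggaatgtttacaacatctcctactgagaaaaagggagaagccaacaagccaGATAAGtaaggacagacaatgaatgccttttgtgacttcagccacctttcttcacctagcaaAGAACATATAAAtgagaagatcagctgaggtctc
Svs5: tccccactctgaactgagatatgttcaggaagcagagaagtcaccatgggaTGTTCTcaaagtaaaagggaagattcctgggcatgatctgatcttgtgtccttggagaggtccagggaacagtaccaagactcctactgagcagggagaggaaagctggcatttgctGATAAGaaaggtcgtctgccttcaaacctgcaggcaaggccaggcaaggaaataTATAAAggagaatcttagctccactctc
Sva: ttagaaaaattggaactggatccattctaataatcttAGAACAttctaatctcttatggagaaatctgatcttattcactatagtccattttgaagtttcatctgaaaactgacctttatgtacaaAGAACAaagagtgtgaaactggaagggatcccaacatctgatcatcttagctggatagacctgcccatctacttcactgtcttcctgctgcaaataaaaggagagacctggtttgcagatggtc

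Svs3a, Svs4 and Svs5 each carried TATAAA from base 28 to base 23 before the start, and Svs6 carried it from base 32 to base 27. In these same 4 windows GATAAG lay between 96 and 77 bases before the start. Svs2 had TATAAA only farther out, from base 236 to 231 and from base 205 to 200, and no GATAAG. Sva had 2 copies of AGAACA and neither of the other motifs. Over both strands, TATAAA was found in 5 of the 6 windows, AGAACA in 4 and GATAAG in 4, while among 32851 promoter windows of the same length 12.4% held TATAAA, 16.1% AGAACA and 6.55% GATAAG. The full inverted repeat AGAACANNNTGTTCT was in 0 of the 6 windows and in 0.00913% of all windows. TATAAA and GATAAG were picked after the sequences had been read, and the windows are not independent of each other, since these genes are copies. The windows of Svs5 and Svs6 were 93.3% identical and those of Svs3a and Svs3b 97.6%, while all other pairs of the 6 windows and Svs3b were between 46.5% and 58.6%, a range that includes the pairs with the unrelated Sva (48.1% to 50.9%). A match describes these letters and is not a binding site.

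The tissue label was checked against prostate genes. The secretory protein probasin (Pbsn) lay between 12.63 and 12.95 on the 7 arrays, the luminal keratin Krt8 between 11.96 and 12.12 and the basal keratin Krt5 between 8.37 and 9.40. Prostate transcripts were thus present on all 7 arrays, at close levels for Pbsn and Krt8 and over a range of 1.03 for Krt5. The deleted gene is not analysed here. NAC replicate 3 stands apart from the other arrays. On it the lung genes Sftpc (surfactant) and Scgb1a1 (club cells) reached 10.51 and 9.29, against at most 5.26 and 4.03 elsewhere, and Xist, the RNA that coats the inactive X chromosome in female cells, was at 6.74, against at most 5.30. All 8 lung genes of a fixed list were higher with NAC, with a summed level of 8.76 to 8.81 in vehicle and 8.76 to 11.57 in NAC-treated prostates (log2 of the sum of linear values). On this array 23 genes exceeded all other arrays by more than 1 log2 unit, and 0 of them were seminal vesicle genes. The differences between NAC and vehicle are also given without this array.

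Svs5, Svs4 and Svs3a, which encode secreted proteins of the seminal fluid, were bright on every array. Svs5 was at 13.16, 13.37 and 13.35 in the vehicle replicates 1, 2 and 4, and at 12.19, 13.06, 12.70 and 13.34 in the NAC replicates 1 to 4 (log2 units). Only NAC replicates 1 and 3 lay clearly under the vehicle values, and the groups overlapped. Svs4 was at 12.40, 12.43 and 12.72 with vehicle and at 10.38, 12.17, 11.72 and 11.66 with NAC. Every NAC-treated prostate was below every vehicle prostate, and NAC replicate 1 was by far the lowest. Svs3a was at 11.60, 12.03 and 12.15 with vehicle and at 9.72, 11.38, 10.74 and 11.11 with NAC, again without overlap and again lowest on NAC replicate 1.

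Svs6, whose promoter window is nearly that of Svs5, was dimmer and had the same order of groups. It was at 8.44, 9.18 and 8.39 with vehicle and at 6.86, 8.20, 7.39 and 8.17 with NAC. The groups did not overlap, although vehicle replicate 4 and NAC replicate 2 lay only 0.20 apart. Sva, the seminal vesicle antigen that binds sperm and lowers their motility, was at 9.93, 10.84 and 11.40 with vehicle and at 7.05, 9.51, 9.36 and 9.31 with NAC. NAC replicates 2, 3 and 4 lay within 0.20 of each other, and NAC replicate 1 was 2.26 under the lowest of them.

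Svs2, the semenogelin-like main component of the plug, was at 10.97, 11.30 and 11.57 with vehicle and at 9.40, 10.99, 10.33 and 13.53 with NAC. NAC replicate 1 was the lowest array, as for the genes above, while NAC replicate 4 was the highest and stood 1.96 above the next. The groups therefore overlapped, and both the lowest and the highest prostate were NAC-treated. Spinkl, a Kazal-type inhibitor-like protein of seminal fluid that binds sperm, was at 5.77, 5.61 and 5.73 with vehicle and at 5.54, 5.54, 5.22 and 5.47 with NAC. Its groups did not overlap, but its whole range was 0.55 and its mean lay at the 21.89th percentile of all genes, so little signal stood behind these values.

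**Figure D1:**
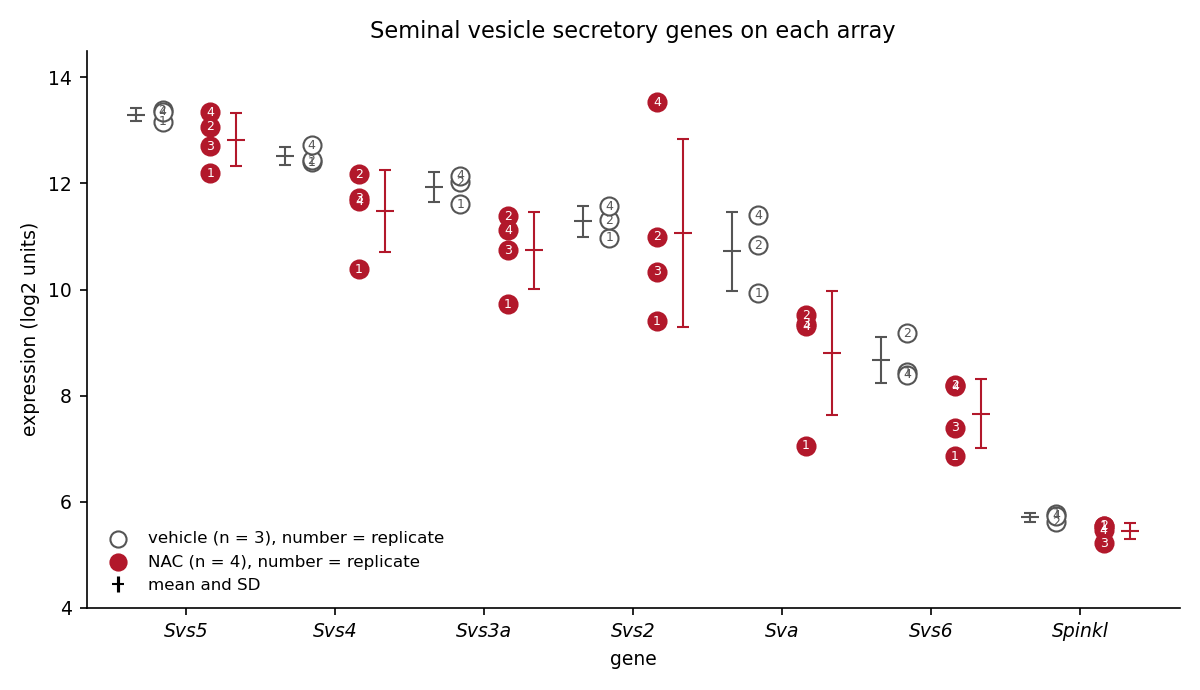
Expression of the 7 seminal vesicle genes (log2 units, vertical axis) on each array, with open circles for vehicle and filled circles for NAC, replicate numbers inside the circles, and bars for mean and SD beside them. NAC replicate 1 is the lowest array for every gene but Spinkl, and NAC replicate 4 is the highest for Svs2 at 13.53.

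Sva had the widest range of the 7 genes, 4.35 log2 units or 20.4-fold, followed by Svs2 with 4.13. The ranges of Svs3a, Svs4 and Svs6 were 2.43, 2.34 and 2.32, and that of Svs5 was 1.19. By the width of its range Sva was in place 6 of all 18938 genes, Svs2 in place 8, Svs3a in place 21, Svs4 in place 25 and Svs6 in place 26. A range of at least 1 was reached by 6 of the 7 genes and by 1.35% of all genes, whose median range was 0.25. The SD among NAC-treated prostates was larger than that among vehicle prostates for 7 of 7 genes and for 60.9% of all genes. For Svs4 the SD was 0.18 with vehicle and 0.77 with NAC, and for Svs2 it was 0.30 and 1.77.

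On the vehicle arrays and on NAC replicates 1 and 3, nearly every gene lay on the same side of its own mean over the 7 arrays. On vehicle replicates 2 and 4, 7 of 7 genes were above their own mean, and on vehicle replicate 1 it was 6 of 7, all but Svs2. On NAC replicates 1 and 3, 0 of 7 were above it. NAC replicates 2 and 4 lay between, with 4 and 3 of 7 genes above their mean. NAC replicate 1 was the lowest array for 6 of the 7 genes; the exception was Spinkl, lowest on NAC replicate 3.

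Averaged over the 7 genes, the deviation from the mean was 0.24 ± 0.21 (SD over genes, n = 7) on vehicle replicate 1, 0.59 ± 0.45 on vehicle replicate 2 and 0.67 ± 0.56 on vehicle replicate 4. For NAC it was -1.36 ± 0.80 on replicate 1, 0.03 ± 0.14 on replicate 2, -0.45 ± 0.23 on replicate 3 and 0.28 ± 0.95 on replicate 4. NAC replicate 4 thus had the largest spread among the genes, since Svs2 deviated there by 2.38 and the other 6 genes by -0.32 to 0.32. For Svs3a, Svs4, Svs5, Svs6 and Sva alone, grouped after their values were seen, the mean deviations ordered the arrays as vehicle replicate 4 (0.82), vehicle replicate 2 (0.79), vehicle replicate 1 (0.32), then NAC replicates 2 (0.08), 4 (-0.06), 3 (-0.40) and 1 (-1.55). The 2 highest arrays of this order were close, at 0.82 and 0.79. Each array stands for a single mouse, and the spread over genes does not measure the spread between mice. On NAC replicate 1 all 5 genes (-2.58 to -0.84) lay below every one of their values on NAC replicate 3 (-0.70 to -0.20).

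**Figure D2:**
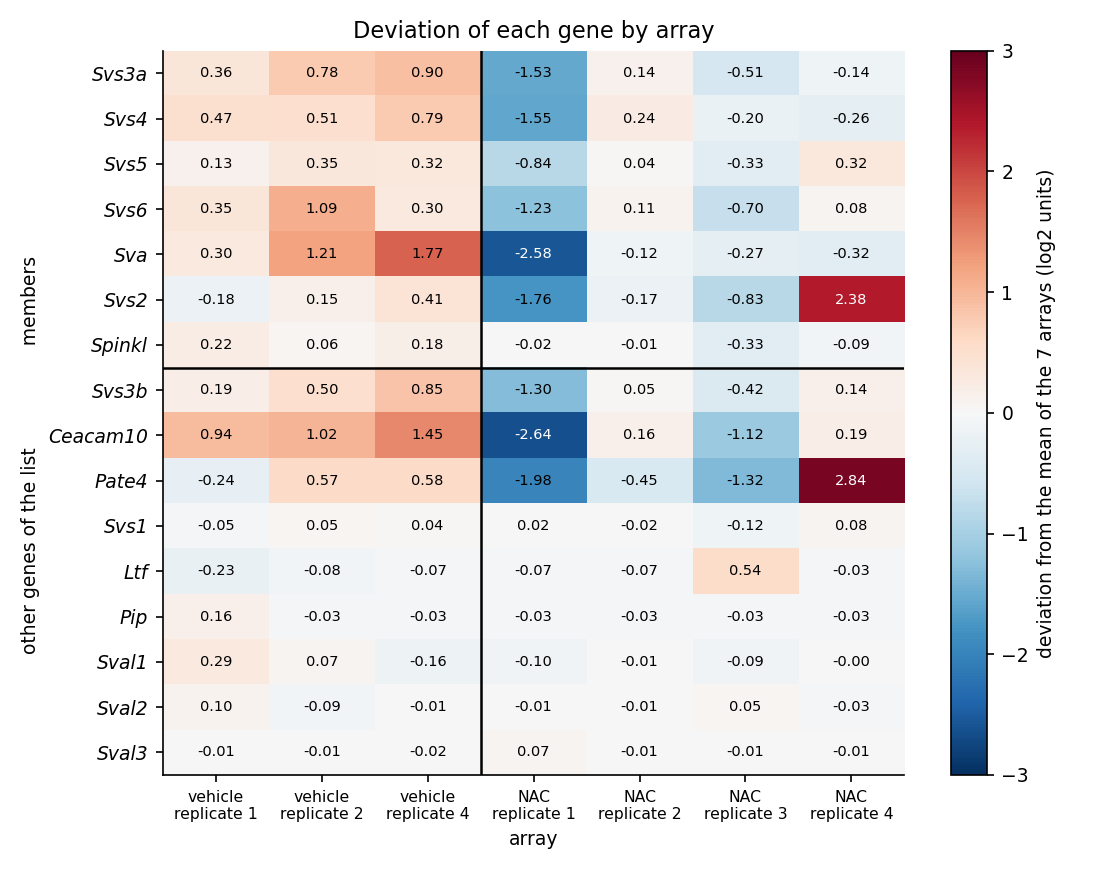
Deviation of each gene (rows) from its mean over the 7 arrays (columns), in log2 units, with red above and blue below the mean and the value printed in each cell; the 7 members stand above the horizontal line, the other seminal vesicle genes below it. Svs2 and Pate4 share the high value on NAC replicate 4 (2.38 and 2.84), while the Svs1 row is close to 0 throughout.

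Correlations over the 7 arrays say the same as a description, and they carry no p-value because the arrays share the group difference and the members were chosen for it. Among Svs3a, Svs4, Svs5, Svs6 and Sva, the 10 pairs had Pearson's r between 0.84 and 0.97 and Spearman's rho between 0.75 and 1.0. Svs4 and Sva, which lie on different chromosomes, ranked the 7 arrays identically (rho 1.0, r 0.96). Without NAC replicates 1 and 3, the same 10 pairs had r between 0.06 and 0.98 over 5 arrays. Svs3a with Sva (r 0.98) and Svs3a with Svs4 (r 0.92) were still close, whereas Svs4 with Svs5 (r 0.06) was not, so the likeness of several pairs rested on these 2 low arrays. Svs2 correlated with the 5 genes at r 0.43 to 0.79, and Spinkl with the other 6 at r 0.10 to 0.53.

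The departure of Svs2 was confined to NAC replicate 4. On the other 6 arrays Svs2 was below Svs4 by a near-constant amount, the difference Svs2 minus Svs4 being between -1.43 and -0.98, and on NAC replicate 4 it was 1.87. These differences compare arrays with each other and not the abundance of the genes, which have different probes. Pate4, the gene of the seminal vesicle protein also called SVS7 or caltrin, shared the departure. It was at 8.35, 9.16 and 9.17 with vehicle and at 6.61, 8.14, 7.27 and 11.43 with NAC, so that Pate4 minus Svs2 stayed between -3.06 and -2.10 on all 7 arrays. Svs2 and Pate4 correlated with r 0.99 over 7 arrays and 0.98 over the 5 arrays without NAC replicates 1 and 3, although Pate4 lies on chromosome 9. Pate4 was on the list of other genes of the gland, and its likeness to Svs2 was found by looking.

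**Figure D3:**
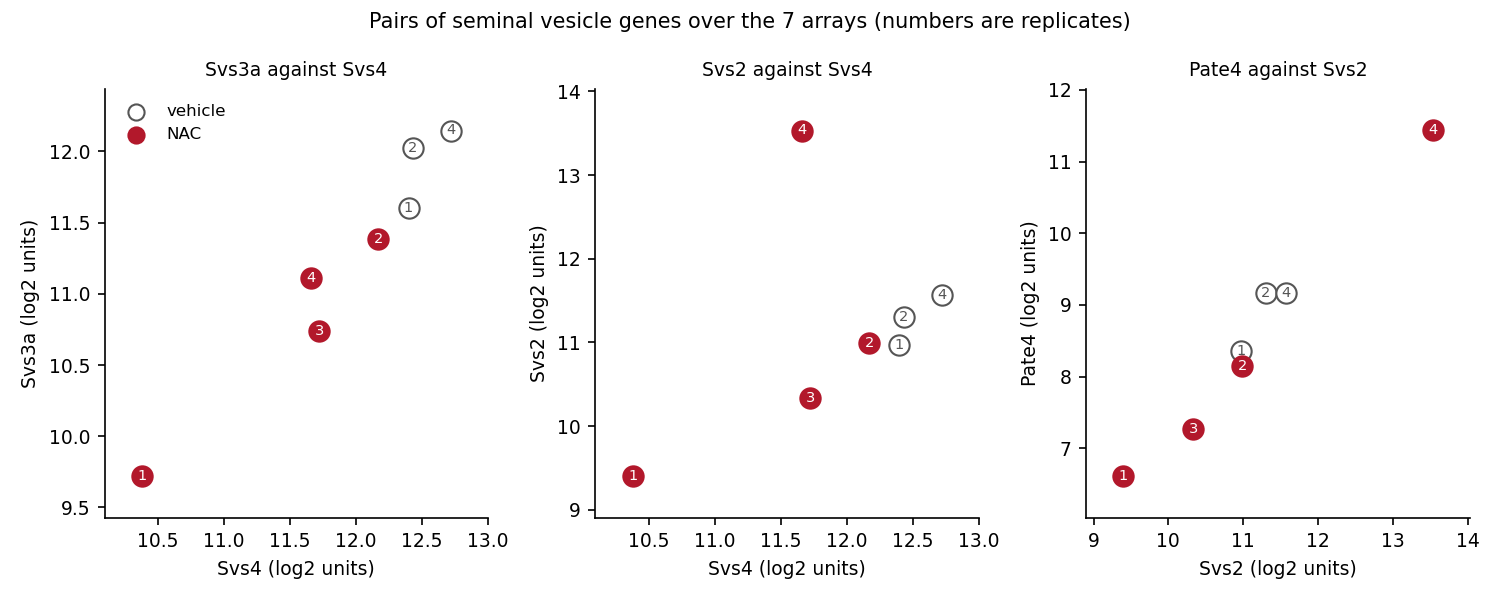
Svs3a against Svs4, Svs2 against Svs4 and Pate4 against Svs2 over the 7 arrays, each axis in log2 units, with open circles for vehicle, filled circles for NAC and the replicate number inside. NAC replicate 4 leaves the line of the other 6 arrays in the middle plot (Svs2 13.53, Svs4 11.66) and lies at its upper end in the plot of Pate4 against Svs2.

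The mean of every one of the 7 genes was lower with NAC, where 50.2% of all genes were lower. The median difference of the 7 was -1.02, beside a median of -0.0003 over all genes. Sva averaged 10.72 ± 0.74 (SD, n = 3 vehicle prostates) against 8.81 ± 1.17 (SD, n = 4 NAC-treated prostates), a difference of -1.91 (standard error 0.67) and so 3.77-fold lower with NAC. Svs3a was at 11.93 ± 0.28 and 10.74 ± 0.73, a difference of -1.19 (standard error 0.39). Svs4 was at 12.52 ± 0.18 and 11.48 ± 0.77, a difference of -1.03 (standard error 0.40). These 3 genes held places 2, 3 and 6 from the lowest among the differences of all 18938 genes.

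For Svs6 the difference was -1.02 (standard error 0.38), from 8.67 ± 0.44 to 7.65 ± 0.65, and for Svs5 it was -0.47 (standard error 0.26), from 13.29 ± 0.12 to 12.82 ± 0.50. Spinkl differed by -0.26 (standard error 0.09) and Svs2 by -0.22 (standard error 0.91), from 11.28 ± 0.30 to 11.06 ± 1.77. The standard error of Svs2 exceeded its difference. In 5 of the 7 genes, all but Svs2 and Svs5, every NAC array was below every vehicle array, where 2.18% of all genes had this order. By limma, 0 of the 7 had an adjusted p under 0.05, as did 0.0% of all genes, and 5 had an unadjusted p under 0.05 in the lower direction, against 2.53% of all genes. Since this contrast chose the genes, nothing is read from these counts. In RNA of a whole tissue piece, fewer cells of a type and less RNA per cell cannot be told apart.

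The size of the difference depended on which prostates were included. Without NAC replicate 1 the median difference was -0.67 in place of -1.02, with Sva at -1.33, Svs3a at -0.85, Svs4 at -0.67, Svs5 at -0.26 and Svs6 at -0.75. Svs2 was then 0.34 higher with NAC, and 6 of 7 genes were lower. Without NAC replicate 4, Svs2 was at -1.04, close to Svs4 (-1.09), and the median was -1.09. Without NAC replicate 3, the array with lung transcripts, the median was -0.93 and 6 of 7 genes were lower. Sva was then at -2.10, Svs3a at -1.19, Svs4 at -1.11, Svs6 at -0.93, Svs5 at -0.43, Spinkl at -0.19 and Svs2 at 0.02. On NAC replicate 1 the macrophage genes Lyz2 (11.02, against at most 10.13 on the other arrays) and Adgre1 (7.91, against at most 6.95) were at their highest; they were picked after their values were seen, and their part in these differences was not tested.

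**Figure D4:**
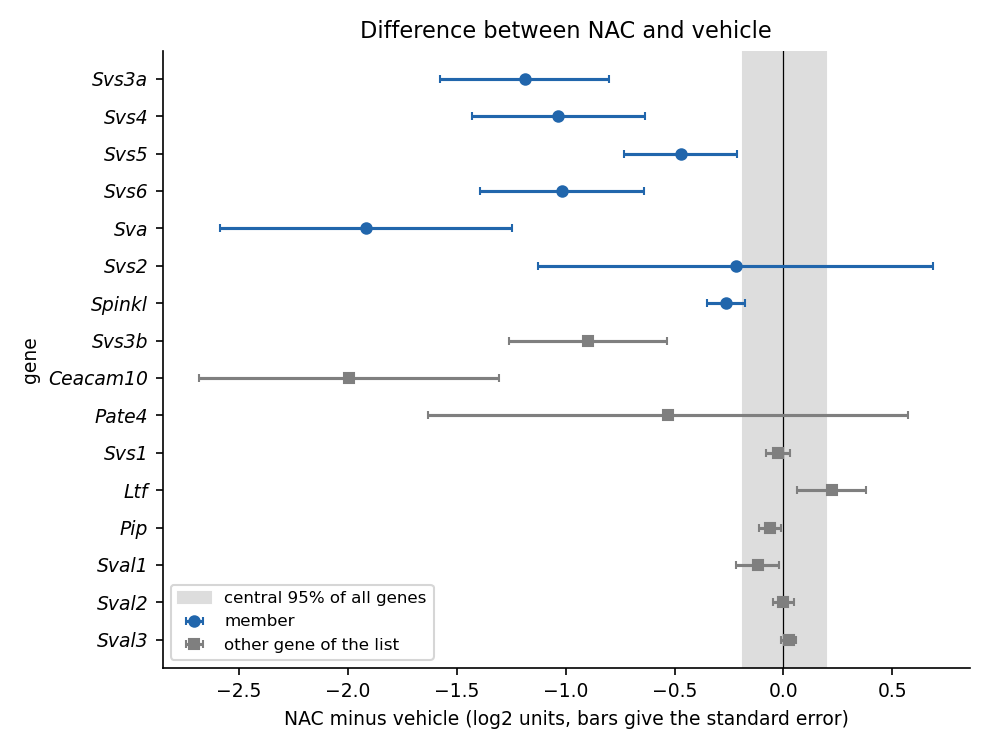
NAC minus vehicle for the 7 members (circles) and the 9 other seminal vesicle genes (squares) in log2 units, bars giving the standard error of the limma fit and the grey band holding the central 95% of all genes (-0.19 to 0.19). Sva and Ceacam10 lie farthest left at -1.91 and -1.99, and the bars of Svs2 and Pate4 cross 0.

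Other genes of the gland, which were not among the 7, were taken from a list of 10, of which 9 were measured. This list too was written with earlier results of these data known, so its p-values are no separate check. Svs3b, a near copy of Svs3a, was at 10.63, 10.93 and 11.29 with vehicle and at 9.13, 10.48, 10.01 and 10.58 with NAC, a difference of -0.90 (standard error 0.36; limma adjusted p = 0.827). Ceacam10, an adhesion molecule relative secreted by the seminal vesicle, was at 11.32, 11.40 and 11.82 with vehicle and at 7.73, 10.53, 9.25 and 10.56 with NAC. Its difference of -1.99 (standard error 0.69; limma adjusted p = 0.827) was the lowest of all genes measured, 3.98-fold. For both genes the NAC arrays lay wholly under the vehicle arrays, and neither passed the test. Without NAC replicate 1 the difference was -0.59 for Svs3b and -1.40 for Ceacam10, and without NAC replicate 3 it was -0.88 and -1.90. Pate4 differed by -0.53 (standard error 1.10; limma adjusted p = 0.920). That value turned on single arrays. It was -1.55 when NAC replicate 4 was left out, -0.17 when replicate 3 was and 0.05 when replicate 1 was. Whether probes of Svs3a also bind Svs3b transcripts, or those of Svs5 bind Svs6, was not tested.

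The remaining 6 genes of the list did not follow the members. Svs1, an amine oxidase-like protein of seminal fluid, lay between 5.05 and 5.25 on all 7 arrays (limma adjusted p = 0.924). Pip and the Sva-like genes Sval1, Sval2 and Sval3, which lie near Sva on chromosome 6, were between 3.08 and 3.70, near the lower end of the table (2.24). Ltf, which encodes lactoferrin, was between 5.04 and 5.81 and highest on NAC replicate 3 (limma adjusted p = 0.827). Of the 9 genes, 7 were lower and 2 higher with NAC, with a median difference of -0.06. By limma 0 of the 9 had an adjusted p under 0.05, and 2, Svs3b and Ceacam10, had an unadjusted p under 0.05, as did 4.41% of all genes.

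The 10 genes most like the members were sought over the whole array, by correlation with the mean deviation of the 7 members, among the 249 eligible genes with a range of at least 1. Predicted genes and clones named by number were then passed over, so the order below is that of the genes left. The closest were Svs3b (r 0.99), Ceacam10 (r 0.98), the small nucleolar RNA Snord53 (r 0.97) and Spink1 (r 0.96). Among the genes left, the next were Cbx3 (r 0.87) and, with r between 0.79 and 0.81, Slc9a3, Zbtb8b, Fam3b, Mrgpra6 and Dse. Spink1, known in mouse as Spink3 and as the caltrin-like trypsin inhibitor of accessory glands and pancreas, was at 11.43, 11.85 and 12.36 with vehicle and at 9.97, 11.47, 10.55 and 11.44 with NAC. Like 6 of the 7 members it was lowest on NAC replicate 1. It had been listed among the prostate secretory genes, so 2 of the 4 closest genes came from the list of other seminal vesicle genes.

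The genes of neighbouring tissues were compared on the same arrays. All 11 prostate secretory genes were measured, 6 higher and 5 lower with NAC, with a median difference of 0.01 and a summed level of 15.43 to 15.49 in vehicle and 15.29 to 15.44 in NAC-treated prostates. Apart from Spink1, whose range was 2.39, these genes ranged by at most 0.77. Spink8 was lower on every NAC array, with a difference of -0.52 (standard error 0.11; limma adjusted p = 0.827). Tgm4, the transglutaminase that cross-links the Svs proteins, lay between 13.96 and 14.02 on the 7 arrays, a flat level near the top of the table (14.30). For the 7 seminal vesicle genes the summed level was 14.36 to 14.77 in vehicle and 12.93 to 14.81 in NAC-treated prostates, a range wider than that of any list of prostate genes.

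Transcription factors of the mesonephric duct, from which the seminal vesicle but not the prostate develops, varied less as a list. Of 7 such genes 6 were measured, and their mean over the list deviated by -0.09 to 0.11 per array. Their median level was 6.27, at the 34.1th percentile of all genes, which limits what a flat list can show. Pax2 lay between 6.20 and 6.47. Emx2, the gene of this list with the largest difference (0.37, standard error 0.18; limma adjusted p = 0.827), was at 5.56 on NAC replicate 4, where Svs2 and Pate4 were high too, and between 4.51 and 5.01 on the other arrays. Genes of the epididymis and vas deferens, which derive from the same duct, were dim (9 of 12 measured) and deviated by -0.03 to 0.06. The urothelial list deviated by -0.11 to 0.11 although Upk1b was bright (12.36 to 12.64), and the smooth muscle list by -0.09 to 0.08. In the prostate epithelium list, 10 of 11 genes were measured, with 6 higher and 4 lower with NAC and a median difference of 0.01. Of 17 androgen-regulated genes 13 were measured, with 10 higher and 3 lower and a median of 0.03, and of 11 partners of the seminal clot 9, with 5 higher and 4 lower and a median of 0.02. With limma, 0 genes of these lists had an adjusted p under 0.05; at an unadjusted p under 0.05 there were 3 of the 11 prostate secretory genes, 1 urothelial and 1 androgen-regulated gene, and 0 in the others, beside 4.41% of all genes. The androgen-regulated gene, Azgp1, is also 1 of the 3 prostate secretory genes.

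Genes beside the Svs cluster on chromosome 2 varied less. All 25 neighbours on the list were measured, among them the WAP-domain genes on either side, with 17 higher and 8 lower with NAC and a median difference of 0.02. By limma 0 of them had an adjusted p under 0.05 and 2 an unadjusted p under 0.05, where 4.41% of all genes had one. Of the 25, Wfdc12 and Wfdc15b had a range of at least 1. Wfdc15b, the nearest of the list on the Svs2 side, was at 9.11, 8.69 and 8.91 with vehicle and at 7.90, 8.65, 8.69 and 8.42 with NAC, lowest on NAC replicate 1 (difference -0.49, standard error 0.20; limma adjusted p = 0.827). Wfdc12, by contrast, was highest on that array at 7.26.

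**Figure D5:**
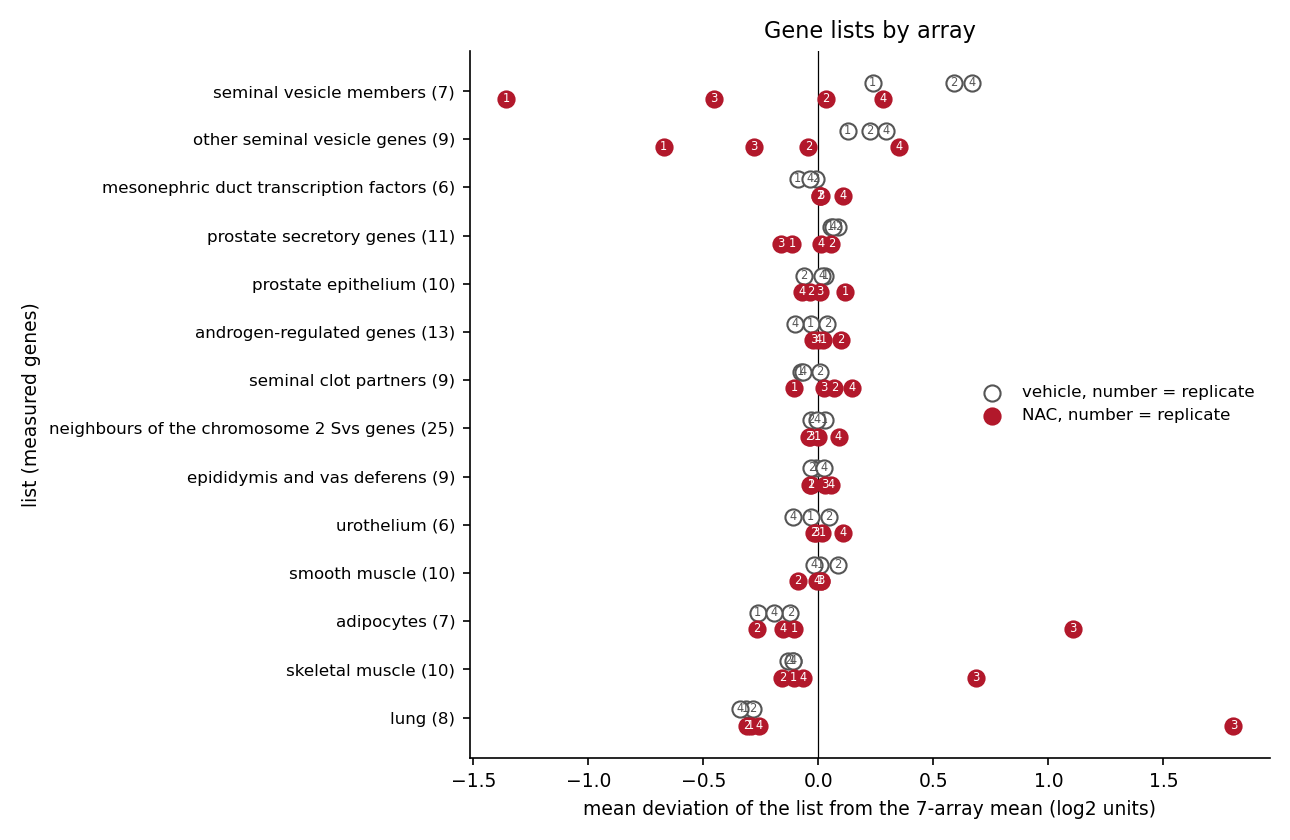
Mean deviation of each gene list (number of measured genes in parentheses) from its mean over the 7 arrays, in log2 units, with open circles for vehicle, filled circles for NAC and replicate numbers inside. The 7 members spread from -1.36 on NAC replicate 1 to 0.67 on vehicle replicate 4, the prostate, duct, urothelium and smooth muscle lists stay within -0.16 and 0.12, and the lung, adipocyte and skeletal muscle lists are high on NAC replicate 3 alone.

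Fat, skeletal muscle and lung genes, which were high on NAC replicate 3, were not high on the arrays where the seminal vesicle genes were. On that array the adipocyte list deviated by 1.11, the skeletal muscle list by 0.68 and the lung list by 1.80, and the 7 members by -0.45. With vehicle, where the members were highest, the lung list deviated by -0.34 to -0.28. How much seminal vesicle tissue, if any, each sample held was not measured, and whether the members' pattern came from dissection or from the cells of the prostate itself was not tested.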

How the data were processed

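RNA of 3 vehicle and 4 NAC-treated Nkx3.1-/- prostates was measured on Affymetrix Mouse Gene 1.0 ST arrays, and arrays were grouped by their labels. The deposited values are on a log2 scale; the authors had normalized the probes by quantiles, subtracted background with RMA and combined perfect-match probes by median polish. Submitters' notes list the tools affy, RMA and limma. Of 20696 probe sets, 18950 naming 1 gene were kept, and the probe set with the highest mean represented a gene, giving 18938 genes, of which 18910 symbols were matched to RefSeq. Summarized values do not show signal over background, and precision is limited by having 7 arrays. In 40.0% of genes, 3 or more arrays share a value.

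NAC and vehicle were compared over all genes with limma 3.58.1 (R 4.3.3; linear model with moderated statistics, two-sided, no covariates), with p-values adjusted by Benjamini-Hochberg and called under 0.05. The fit was tested on simulated data. Nothing in the sources used here ties arrays to litters, so p-values measure the spread between these samples. Alternatives were subtraction of medians, a repeated quantile normalization, leaving out genes below the 40th percentile of mean level, a median over probe sets, all probe sets, a robust fit with a variance trend, array weights, a replicate block and each array left out.

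The members and the lists, written from textbook knowledge, were chosen with earlier results of these data known. The genes named are the members, the measured genes of the list of other seminal vesicle genes, up to 3 genes with the largest difference in each other list described, markers of the tissue label, and the 10 genes most correlated with the members' mean among those with a range of at least 1. Predicted genes and clones named by number were passed over in that search. Other genes were named after their values were seen. Promoter sequences came from RefSeq, build GRCm38.p6, and were aligned in pairs with a match score of 2, a mismatch score of -1, a gap opening score of -4 and a gap extension score of -1. All value columns belong to a sample, with 0 left over.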

Additional observations from a re-analysis of the deposited data

Results flagged for a closer look

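Among the 16 seminal vesicle genes measured, 3 had an array far from the other NAC arrays by Dixon's criterion (critical value 0.829 for 4 arrays). The nominal rate by chance, about 1 in 20 such groups, is for normally distributed values without ties, and many genes here share values between arrays. How many of all genes meet the criterion was not counted, so nothing is read from the number flagged. Sva was at 7.05 on NAC replicate 1, where the other NAC arrays were at 9.31 to 9.51. Ltf was at 5.81 on NAC replicate 3 and at 5.21 to 5.24 on the others, with the same value on NAC replicates 1 and 2. Sval3 was at 3.18 on NAC replicate 1 and at 3.09 on each of the others, a small step in a dim gene. With the others tied, a step of any size meets the criterion. Svs2 on NAC replicate 4 did not meet the criterion. The cause of these values was not tested.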

How the results depend on the processing

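Over 15 alternatives, Svs3a, Svs4, Svs5, Svs6 and Sva were lower with NAC under each of them, and Spinkl under each that kept it. Removal of dim genes left Spinkl out. Not all 15 were separate checks. The variance trend, both probe set choices and the removal of dim genes left the differences of the members kept as they were. The replicate block gave the same differences as leaving out NAC replicate 3. With each array left out in turn, the differences were between -1.40 and -0.85 for Svs3a, -1.26 and -0.67 for Svs4, -0.64 and -0.26 for Svs5, -1.20 and -0.75 for Svs6, -2.31 and -1.33 for Sva, and -0.31 and -0.19 for Spinkl. Svs2 was between -1.04 without NAC replicate 4 and 0.34 without NAC replicate 1. It was also higher with NAC without NAC replicate 3 (0.02), and lower with any other array left out. The median of the members was between -1.20 and -0.67. The number of genes called was between 0 and 1; the 1 gene, called without NAC replicate 4, was Crip1, and 0 members were called. To look for pairing, each gene's group mean was first subtracted from the arrays. On what was left, same-numbered arrays correlated with r 0.21, 0.29 and -0.07. Vehicle and NAC arrays of different numbers then correlated with r -0.27 to 0.21. So few pairs cannot decide whether the numbers pair the samples. With the replicate number as a block, 0 genes were called, the members' median was -0.93, Svs2 was at 0.02, and 956 genes had an unadjusted p under 0.05, against 836. Other genes of the gland changed sign under some alternatives. Svs1 was at 0.012 with the block and without NAC replicate 3, and between -0.057 and 0.012 with an array left out. Pate4 was between -1.5541 without NAC replicate 4 and 0.0542 without NAC replicate 1. Sval2 was at 0.0075 with array weights and between -0.0427 and 0.0484 with an array left out, and Pip between -0.0933 and 0.0. The cause of these changes was not tested. Summarized values give no background level, which limits what Spinkl, Pip and the Sval genes can show.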

Other observations

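On NAC replicate 1, where most of the members were lowest, several genes of macrophages were at their highest. They were named after their values were seen, and no list of macrophage genes was compared. Among genes with a range of at least 1, predicted genes and numbered clones were again passed over. Those most opposite to the mean of the members included the lysozyme genes Lyz2 (r -0.93 over 7 arrays) and Lyz1 (r -0.88), the F4/80 gene Adgre1 (r -0.87), the integrin gene Itgam (r -0.87) and Cd5l (r -0.86). By rank they were less opposite, with Spearman's rho of -0.50, -0.54, -0.52, -0.58 and -0.43 in this order. Fut11 (r -0.93, rho -0.93) and Rnase2a (r -0.89, rho -0.76) were also among the most opposite. Lyz2 was at 9.40, 9.13 and 9.58 in vehicle replicates 1, 2 and 4 and at 11.02, 9.39, 10.13 and 9.42 in NAC replicates 1 to 4. Adgre1 was at 7.91 on NAC replicate 1 and between 6.72 and 6.95 on the others. Alox15, a lipoxygenase of resident macrophages, was at 8.82 on NAC replicate 1 and between 6.37 and 6.86 on the others.

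On NAC replicate 1, 6 genes fell short of all other arrays by more than 1 log2 unit. They were Sva, Svs3a, Svs4, Ceacam10 and the predicted genes Gm12888 and Gm4956, so 3 of the 6 were members. On NAC replicate 4, 7 genes exceeded all other arrays by more than 1 log2 unit, namely Svs2, Pate4, Cdo1, Cyp4a12a, Cyp4a12b, Timm21 and Olfr767. Cdo1, which encodes the cysteine dioxygenase that starts the breakdown of cysteine, was at 8.97 on NAC replicate 4 and between 6.86 and 7.86 on the others. Cyp4a12a, an androgen-dependent fatty acid hydroxylase in mouse kidney, was at 5.93 on NAC replicate 4 and between 3.86 and 4.06 on the others. What these genes shared on that array was not tested.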
